A study of Homo sapiens with 6 samples.

Results

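Beta-catenin is the transcriptional arm of canonical WNT signalling. When the pathway is active the protein escapes degradation, enters the nucleus and binds TCF/LEF factors, which sit on DNA through an HMG box. BCL9 proteins and PYGO proteins join it there as coactivators, while TLE proteins hold TCF/LEF factors in a repressive state when beta-catenin is absent. In prostate epithelium the same beta-catenin protein also anchors E-cadherin at cell junctions. The genes described here encode this complex: CTNNB1 (beta-catenin), the DNA-binding factors TCF7, TCF7L1, TCF7L2 and LEF1, the coactivators BCL9, BCL9L and PYGO2, and the co-repressors TLE1 and TLE3. Members were selected by symbol: every probe set whose annotated gene was exactly 1 of these 10 names. In all, 9 of the 10 genes were found, out of 19775 genes with a probe set of their own, and they had 28 probe sets. TCF7 was not analysed here.

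RNA came from VCaP cells, a prostate cancer line carrying the TMPRSS2/ERG fusion and grown in serum-containing medium, which the series describes as high in SOX9. SOX9 is, like the TCF/LEF factors, an HMG-box transcription factor, and the series title places the knockdown in a study of WNT signalling. Cells received SOX9 siRNA A, SOX9 siRNA B or an siRNA with no target (control), and were harvested 72 h later for Affymetrix Human Genome U133 Plus 2.0 arrays, with 2 arrays in each of the 3 groups. The design text calls them biological duplicates of a single line, so the p-values below rest on the spread between these cultures and arrays. That spread is a single estimate shared by the groups, also where their SDs are unequal. limma moderates it toward a trend over all probe sets tested. RNA from bulk cultures cannot separate less RNA per cell from fewer cells that hold it. An array reports a MAS5 signal, a linear brightness summarised over the probes of a probe set, and brightness is not comparable between probe sets.

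SOX9 signal was lowest with siRNA B, but the difference between the siRNAs was not called without the block described below. Its brighter probe set, 202935_s_at, read 1107.9 and 672.6 in the siRNA A arrays and 609.3 and 333.5 in the siRNA B arrays, against 1469.3 and 1126.2 in the controls (replicates 1 and 2 in each group). All 4 SOX9 siRNA arrays were below both controls, and replicate 2 was the lower one with each siRNA. The fitted log2 difference for both siRNAs was -1.02 (SE 0.29, limma adjusted p = 0.571 over 27307 probe sets), and limma adjusted p was 0.00141 with the replicate number as a block. The other probe set, 202936_s_at, was the brighter in the controls and fell further. It was at -1.36 with the same order of groups (limma adjusted p = 0.328, or 3.25e-06 with the block). For siRNA A alone 202935_s_at was at -0.57 (95% interval -1.28 to 0.15), not called even with the block (limma adjusted p = 0.545). There 202936_s_at was at -0.97, called only with the block (limma adjusted p = 0.033). siRNA A minus siRNA B was 0.91 for 202935_s_at (limma adjusted p = 0.492, or 0.0352 with the block). For 202936_s_at it was 0.77 (limma adjusted p = 0.615, or 0.11 with the block). Median signal ran from 21.2 to 26.3 over the arrays and the 2%-trimmed mean from 144 to 190, both lowest in siRNA B replicate 1 and highest in siRNA B replicate 2. Luminal prostate markers were read in all arrays: 8 of 10 had a probe set and passed the filter, with a summed signal of 25490 to 29760 in SOX9 siRNA arrays and 26350 to 28320 in controls, KLK2 alone reading at least 15122.1; 1 of the 8, SLC45A3, was called higher with the block described below, against 3.61% of all genes called in that fit. For other cell types, 1 of 2 measured basal, 1 of 5 fibroblast and 2 of 5 leukocyte and erythroid markers passed the filter, with summed signals of 15.3 to 65.2, 69.0 to 272.6 and 108.8 to 166.1 in SOX9 siRNA arrays and 31.6 to 43.7, 135.3 to 185.1 and 102.7 to 103.2 in controls. PTPRC, the pan-leukocyte antigen, did not exceed 23.0 in any array, and CD3E did not exceed 16.8. CD79A, HBB and LYZ reached 40.0, 60.9 and 50.8, all in siRNA A replicate 2, and at most 33.3, 44.0 and 12.0 in controls. Whether such RNA has a part in the values below was not tested.

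Among the 9 genes, TCF7L2 had the most negative differences with SOX9 siRNA, LEF1 was negative in all 3 probe sets, and TLE3 and the brightest CTNNB1 probe set were close to control, but no member passed the test. Differences below are on the log2(signal + 16) scale, tested probe set by probe set, and understate the change of dim probe sets. A probe set was tested if its mean reached the median of all probe sets, 5.25 or a signal of 22.0. Of the 28 member probe sets 23 did, and 5 did not: those of TCF7L1, 1 of TCF7L2, 1 of BCL9L and 2 of TLE1. Nearest to the limit were LEF1 221557_s_at just inside it and BCL9L 227616_at, with a mean of 5.15, just outside.

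With both siRNAs against control, 0 of the 23 were called at a limma adjusted p below 0.05, where 0.00366% of all probe sets tested were called; the smallest adjusted p among the members was 0.586. At an unadjusted limma p below 0.05 there were 3 members, 2 of TCF7L2 and LEF1 221557_s_at, against 6.9% of all probe sets. LEF1 221557_s_at passed the filter through its control arrays alone, so its p, interval and order of groups are a description. It remains in the counts of this paragraph, which it moves toward lower values. The median difference of the 23 was -0.18, against -0.03 over all probe sets tested, and 16 of the 23 were negative at 2 decimals, against 53.8% of all. Of the 23, 6 were TCF7L2 probe sets, all negative, so these figures count that gene 6 times. In 4 of the 23 every SOX9 siRNA array was below both control arrays, a pattern found in 10.9% of all probe sets tested, and in 1 every one was above, as in 4.75% of all. With the replicate number as a block, 2 of the 23 were called, both TCF7L2 and both lower, where 3.01% of all were called and 2% were called lower. The block assumes that replicate 2 departs from replicate 1 by the same amount in every group. That amount was unequal in each member probe set that the block called in any comparison. Its spread came from limma's trend over probe sets alone, which can make blocked p-values too small. Median centring with the block left 1 call, and the share of all probe sets called in that fit is not given here.

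**Figure D1:**
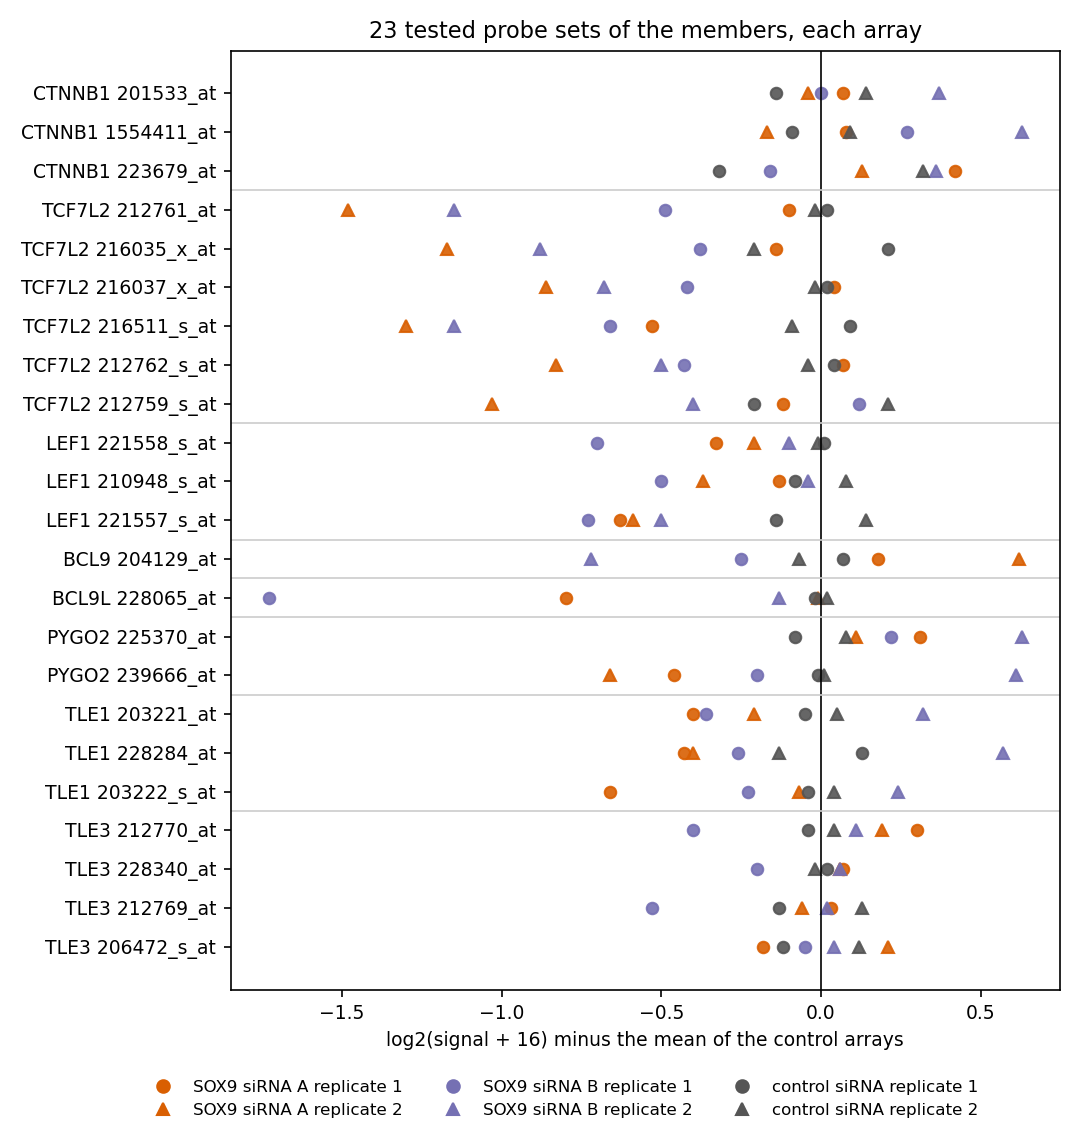
Each row is 1 of the 23 tested member probe sets, and each point is 1 array, placed by log2(signal + 16) minus the mean of the control arrays of that probe set; colour marks the group and shape the replicate. In all 6 TCF7L2 rows the lowest point is siRNA A replicate 2, at -0.83 to -1.48.

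TCF7L2 (also called TCF4) is a TCF/LEF factor of epithelial cells. The array carries 7 probe sets for it. The brightest, 212761_at, read 907.5 and 339.0 in the siRNA A arrays and 691.5 and 431.5 in the siRNA B arrays, against 988.6 and 965.7 in the controls. The controls differed little, every SOX9 siRNA array was below them, and replicate 2 was much lower than replicate 1 with each siRNA. Group means were 623.2 ± 402 with siRNA A, 561.5 ± 184 with siRNA B and 977.2 ± 16.2 with control (SD, n = 2 each). The difference for both siRNAs was -0.81 (SE 0.33, 95% interval -1.52 to -0.09), a level of 57.2% of control on that scale. It was not called (limma adjusted p = 0.684), but was with the replicate block (limma adjusted p = 0.0293), though not with the block and median centring together (limma adjusted p = 0.0613). The block takes the replicate shift as equal in all groups. For 212761_at it was -1.38, -0.66 and -0.03 for siRNA A, siRNA B and control.

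A second probe set gave the lowest p of the 23. TCF7L2 216511_s_at, of a type that can detect related transcripts, read 153.1 and 83.0 in the siRNA A arrays and 137.7 and 94.0 in the siRNA B arrays, against 242.8 and 213.4 in the controls. Here replicate 1 of each SOX9 siRNA was also clearly below both controls. The difference was -0.91 (SE 0.27, 95% interval -1.49 to -0.33), with limma adjusted p = 0.586, or 0.00604 with the replicate block. The replicate shifts were again unequal, at -0.77, -0.48 and -0.17 for siRNA A, siRNA B and control. Each siRNA gave the same -0.91 against the shared control arrays, and the blocked limma adjusted p was 0.0492 for siRNA A and 0.0197 for siRNA B; unblocked, both missed the threshold.

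The 4 other tested TCF7L2 probe sets were negative too, but their groups overlapped. TCF7L2 216035_x_at was at -0.64, 216037_x_at at -0.48, 212762_s_at at -0.42 and 212759_s_at at -0.36 (SE 0.27 to 0.30, limma adjusted p from 0.727 to 0.879, none called with the block). Replicate 1 of siRNA A decided the overlap in 216037_x_at and 212762_s_at, where it read 212.0 and 132.3, above the higher control arrays at 207.9 and 128.9. Probe sets ending in _x_at can hybridise to other sequences, and all of these share a gene, so they are not independent measurements. The 7th, 236094_at, read 13.3 and 2.5 in the siRNA A arrays and 1.0 and 8.4 in the siRNA B arrays, against 11.3 and 9.5 in the controls, below the filter.

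Between the 2 siRNAs no difference in TCF7L2 signal passed the test, and the intervals were wide. siRNA A minus siRNA B was 0.03 for 212761_at (95% interval -0.80 to 0.85) and -0.01 for 216511_s_at (95% interval -0.67 to 0.66). A difference up to about those bounds could have been missed, and after adjustment a larger one too. The replicates differed more than the siRNAs did. Replicate 2 minus replicate 1 of 212761_at was -1.38 for siRNA A, -0.66 for siRNA B and -0.03 for control, while the median over all tested probe sets was -0.04, 0.32 and 0.14 in the same groups. A difference below -1 between replicates was seen in 2.3% of all tested probe sets for siRNA A and 1.44% for siRNA B, against 0.231% with control. SOX9 202935_s_at was also lower in replicate 2 than in replicate 1 of each siRNA, and of the controls too, where 212761_at was nearly level. The array with the lowest TCF7L2 signal, siRNA A replicate 2, had the highest 3′ to 5′ signal ratios of the 6 arrays, a sign of RNA quality, at 1.19 for GAPDH and 3.79 for ACTB, against 1.04 to 1.05 and 3.07 to 3.15 in the controls. siRNA B replicate 2, the next lowest for 212761_at, had ratios of 1.11 for GAPDH and 2.91 for ACTB, the lowest ACTB ratio of the 6. The part of SOX9 level, RNA quality and other differences between the cultures was not tested. With the replicate 2 arrays of both siRNAs left out, 212761_at was at -0.30 and 216511_s_at at -0.60 (limma adjusted p = 0.960 for each); with the replicate 1 arrays left out instead they were at -1.32 and -1.22 (limma adjusted p = 0.0111 and 0.0144). Those fits took the siRNA arrays left as 1 group.

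**Figure D2:**
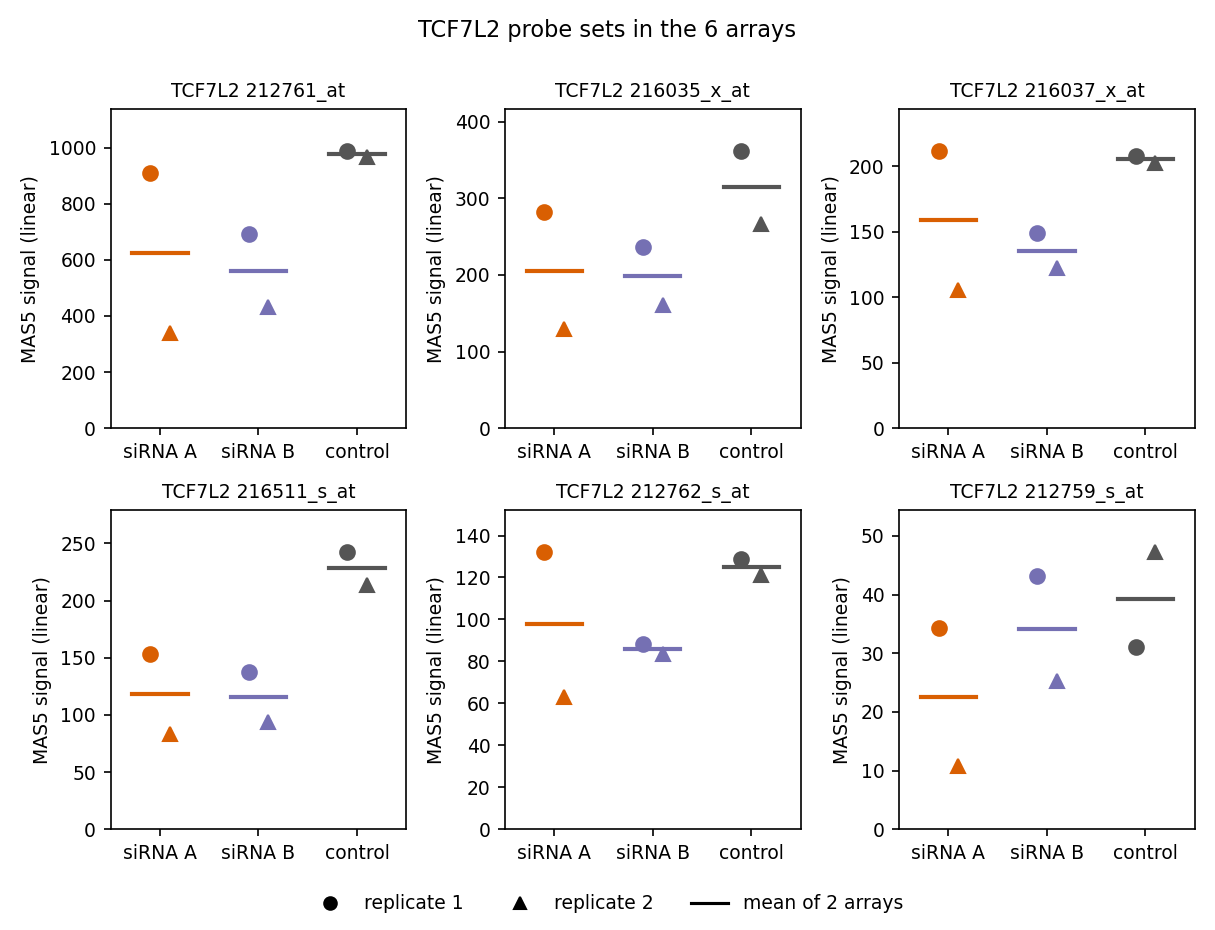
Signals of the 6 tested TCF7L2 probe sets on a linear axis from 0, by group; circles are replicate 1, triangles replicate 2 and lines the mean of 2 arrays. In 212761_at and 216511_s_at all SOX9 siRNA points lie below both control points, and triangles lie below circles with each siRNA.

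Promoters are shown for TCF7L2 because it had the most negative differences of the complex and because SOX9, the silenced factor, binds DNA. The sequences are RefSeq windows of build GRCh38.p14, from 250 bases before to 50 after an annotated start, 5′ to 3′ on the plus strand, the strand of the gene. Capitals mark a match to a 7-letter SOX-type motif, AACAATG or AACAAAG, on either strand.
TCF7L2 chr10:112949997-112950296: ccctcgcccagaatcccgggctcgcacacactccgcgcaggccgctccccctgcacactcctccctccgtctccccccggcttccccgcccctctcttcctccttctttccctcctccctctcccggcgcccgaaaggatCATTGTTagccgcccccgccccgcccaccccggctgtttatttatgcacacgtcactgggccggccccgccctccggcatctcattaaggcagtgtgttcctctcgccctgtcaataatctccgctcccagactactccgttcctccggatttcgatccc
TCF7L2 chr10:113126383-113126682: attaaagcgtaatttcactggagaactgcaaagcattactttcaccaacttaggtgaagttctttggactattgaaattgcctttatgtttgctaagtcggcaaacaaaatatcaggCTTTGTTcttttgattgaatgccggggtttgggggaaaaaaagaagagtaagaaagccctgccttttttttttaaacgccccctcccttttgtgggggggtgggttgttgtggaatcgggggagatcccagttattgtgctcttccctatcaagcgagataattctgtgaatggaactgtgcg

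Each of these windows held 1 SOX-type match, on the minus strand, and a further TCF7L2 window at chr10:113129021-113129320 held none. Of 35116 RefSeq promoters of this length, 8.22% held such a match. Only 1 TCF/LEF string was searched, ATCAAAG, which was in 0 of the TCF7L2 windows and in 2.62% of all promoters. AACAAAG, counted as SOX-type alone, differs from it in 1 letter. The split thus does not separate SOX from TCF/LEF matches. Of the other members, 1 of 2 TCF7 windows held a SOX-type match, and 0 of the windows of CTNNB1, TCF7L1, LEF1, BCL9, PYGO2, TLE1 or TLE3 held any of these strings. No window was available for BCL9L, which was not searched. A match is a string of letters and shows no binding.

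LEF1, a TCF/LEF factor known from lymphocytes, had differences of -0.61 to -0.26 in its 3 probe sets. Its bright probe set 221558_s_at read 1573.1 and 1707.0 in the siRNA A arrays and 1213.8 and 1850.8 in the siRNA B arrays, against 1997.6 and 1964.0 in the controls. All 4 SOX9 siRNA arrays were below both controls, and siRNA B replicate 2 came nearest. The difference was -0.33 (SE 0.22, 95% interval -0.80 to 0.13, limma adjusted p = 0.821). It was -0.51 without the replicate 2 arrays of both siRNAs and -0.15 without the replicate 1 arrays, the reverse of the order in TCF7L2. In those fits the median over all tested probe sets was -0.10 and 0.04, a shift in the same direction as that of LEF1.

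The dimmer LEF1 221557_s_at was at -0.61 (SE 0.26, limma adjusted p = 0.700). It read 16.7 and 17.6 in the siRNA A arrays and 14.4 and 19.8 in the siRNA B arrays, against 29.9 and 39.7 in the controls. The SOX9 siRNA arrays were close together, below both controls and below the filter level of 22.0, so the filter itself favoured a difference here and its p supports nothing. LEF1 210948_s_at was at -0.26 (limma adjusted p = 0.892), with siRNA B replicate 2 inside the control range. All 3 LEF1 probe sets are of the type that can detect related transcripts, and none was called with the block (limma adjusted p from 0.284 to 0.762).

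TCF7L1, a TCF/LEF factor known mainly as a repressor, was dim in every array. Its single probe set 221016_s_at read 17.5 and 2.0 in the siRNA A arrays and 15.6 and 6.3 in the siRNA B arrays, against 19.3 and 16.2 in the controls. Every array was below the filter level, and no test was made. TCF7L2 and LEF1 were therefore the TCF/LEF genes with tested probe sets.

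CTNNB1 signal was not seen to change with SOX9 siRNA. The brightest probe set, 201533_at, read 4664.1 and 4308.4 in the siRNA A arrays and 4446.2 and 5746.6 in the siRNA B arrays, against 4019.5 and 4899.3 in the controls. The groups overlapped, and only siRNA B replicate 2, the array with the highest trimmed mean, was above both controls. The difference was 0.10 (SE 0.17, limma adjusted p = 0.945), with a 95% interval of -0.27 to 0.47. CTNNB1 1554411_at was at 0.21 and 223679_at at 0.19, with limma adjusted p of 0.914 and 0.930. CTNNB1 1554411_at read 704.8 and 588.1 in the siRNA A arrays and 805.5 and 1038.2 in the siRNA B arrays, against 624.7 and 704.9 in the controls. Both siRNA B arrays were above both controls, at 0.45 against control (95% interval -0.13 to 1.04, limma adjusted p = 0.618), while siRNA A was at -0.04. Here siRNA A minus siRNA B was -0.50 (95% interval -1.08 to 0.09, limma adjusted p = 0.767). The arrays measure CTNNB1 RNA, not the protein or where in the cell it is.

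The coactivator BCL9, which links beta-catenin to PYGO proteins, had its siRNA A and siRNA B arrays on opposite sides of control, a difference that did not pass the test. BCL9 204129_at read 70.1 and 100.8 in the siRNA A arrays and 48.0 and 30.0 in the siRNA B arrays, against 63.5 and 56.5 in the controls. Both siRNA A arrays were above both controls and both siRNA B arrays below them, a split in opposite directions found in 3% of all tested probe sets. siRNA A minus siRNA B was 0.89 (SE 0.29, 95% interval 0.27 to 1.50), with unadjusted p = 0.00799 and limma adjusted p = 0.385, or 0.0468 with the replicate block. In this comparison 0 of the 23 members were called, against 0.0476% of all probe sets, and with the block 1 was, against 2.6% of all and 1.41% higher. At an unadjusted limma p below 0.05 there were 2, BCL9 and PYGO2 239666_at, against 7.48% of all. Against control, BCL9 was at 0.40 for siRNA A, at -0.48 for siRNA B, and at -0.04 for both together.

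BCL9L, the paralogue of BCL9, was low mainly in replicate 1 of the siRNAs. BCL9L 228065_at read 23.3 and 51.8 in the siRNA A arrays and 4.6 and 46.7 in the siRNA B arrays, against 51.5 and 53.3 in the controls. The replicate 2 arrays were near control, and siRNA B replicate 1, the array with the lowest median signal, was far below it. The difference was -0.67 for both siRNAs (SE 0.37, limma adjusted p = 0.774) and -0.93 for siRNA B, where it was called with the block (limma adjusted p = 0.0352) and not without it (limma adjusted p = 0.481). Without the replicate 1 arrays of both siRNAs it was -0.07. The other probe set, 227616_at, ran the opposite way at low signal, with 23.0 and 35.0 in the siRNA A arrays and 17.5 and 26.7 in the siRNA B arrays, against 6.2 and 15.8 in the controls, and was not tested. The 2 BCL9L probe sets thus disagreed in direction.

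PYGO2, a PHD-finger protein that reads methylated histone H3 and completes the coactivator chain, had values above control in its brighter probe set, which did not pass the test. PYGO2 225370_at read 160.1 and 137.9 in the siRNA A arrays and 149.9 and 204.3 in the siRNA B arrays, against 118.6 and 134.4 in the controls. All 4 SOX9 siRNA arrays were above both controls, siRNA A replicate 2 by little. The difference was 0.32 (SE 0.24, 95% interval -0.19 to 0.83, limma adjusted p = 0.854). PYGO2 239666_at was at -0.18, with siRNA A at -0.56 and siRNA B at 0.21 against control, so these probe sets disagreed too; its siRNA A minus siRNA B difference of -0.77 was not called (limma adjusted p = 0.571).

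**Figure D3:**
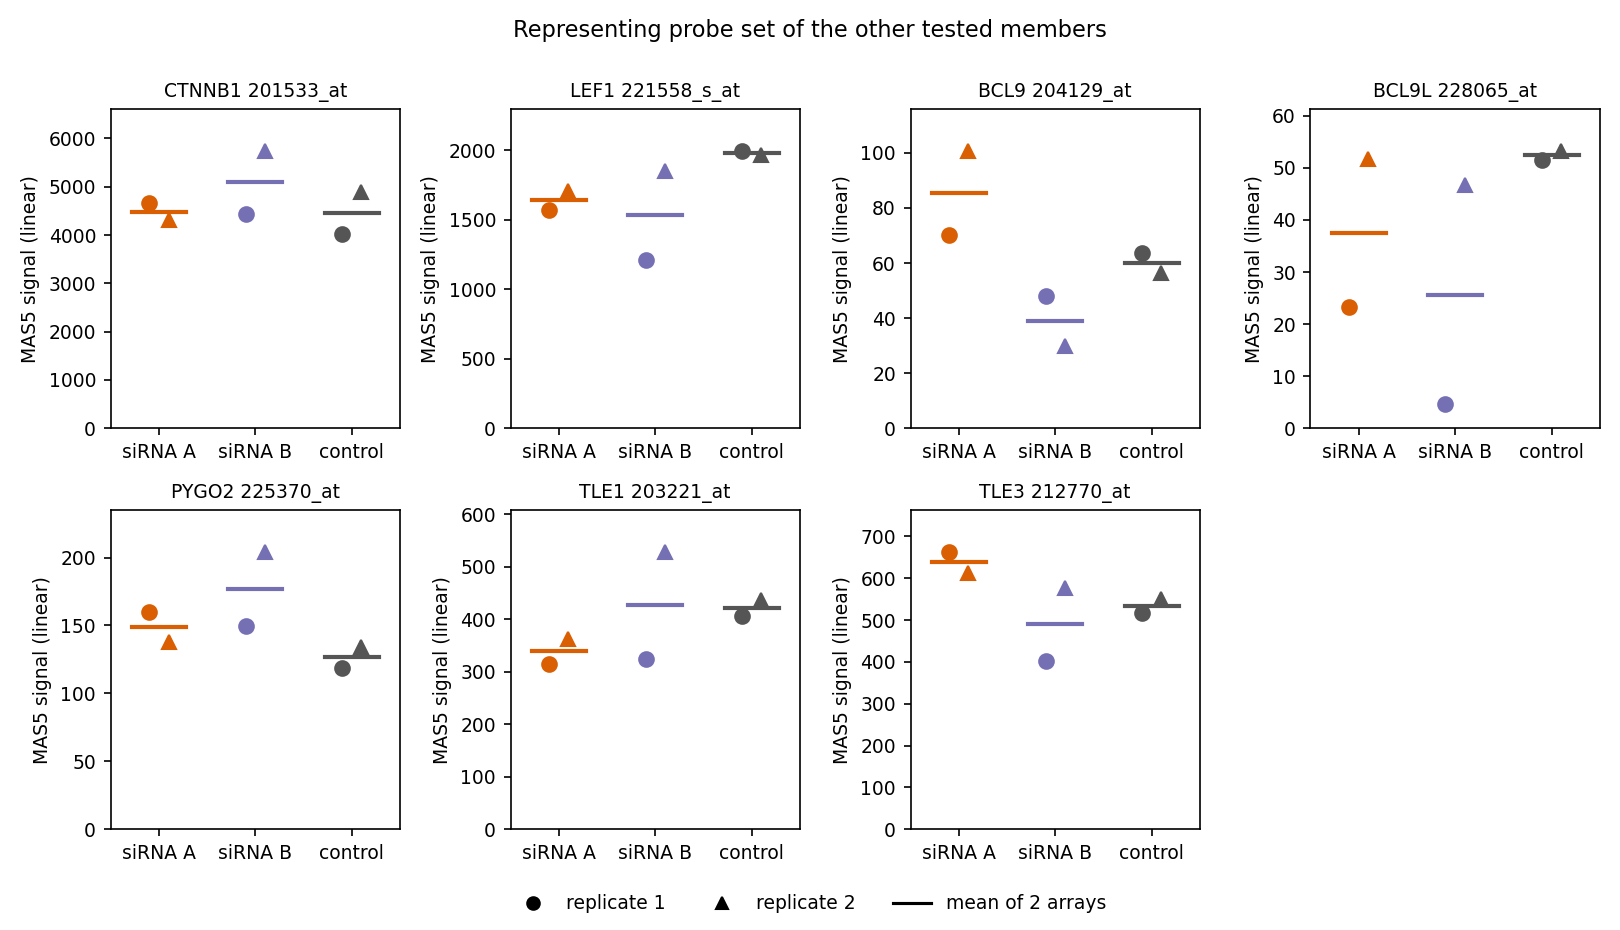
Signals of the brightest probe set of the 7 other tested members on linear axes from 0, by group, with replicate 1 as circles, replicate 2 as triangles and the mean of 2 arrays as lines. LEF1 points with both SOX9 siRNAs lie below control, BCL9 points of the siRNAs lie on opposite sides of control, and the CTNNB1 groups overlap.

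The Groucho-type co-repressors TLE1 and TLE3 showed no shared direction with both siRNAs. TLE1 203221_at read 314.7 and 362.5 in the siRNA A arrays and 324.2 and 528.4 in the siRNA B arrays, against 406.6 and 436.4 in the controls. Both siRNA A arrays were below both controls, while the siRNA B arrays lay on either side. Its difference was -0.16 (SE 0.26, limma adjusted p = 0.941), and the 2 other tested TLE1 probe sets were at -0.13 and -0.18. Against control the 3 TLE1 probe sets ran from -0.41 to -0.31 for siRNA A, and from -0.02 to 0.16 for siRNA B. siRNA A minus siRNA B was -0.28, -0.57 and -0.37 in 203221_at, 228284_at and 203222_s_at, with limma adjusted p from 0.747 to 0.946. The TLE1 probe sets below the filter, 227130_s_at and 203220_s_at, read 2.3 to 25.5 in SOX9 siRNA arrays and 12.0 to 32.3 in controls.

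TLE3 lay close to control. TLE3 212770_at read 663.6 and 612.3 in the siRNA A arrays and 401.4 and 577.9 in the siRNA B arrays, against 517.9 and 551.6 in the controls. Both siRNA A arrays and siRNA B replicate 2 were above both controls, and siRNA B replicate 1 was below them. The 4 TLE3 probe sets were at 0.05, 0.00, -0.14 and 0.01, with SE of 0.23 to 0.24 and limma adjusted p of at least 0.947. TLE3 228340_at had 95% bounds of -0.51 and 0.50, so a change of that size could have been missed.

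**Figure D4:**
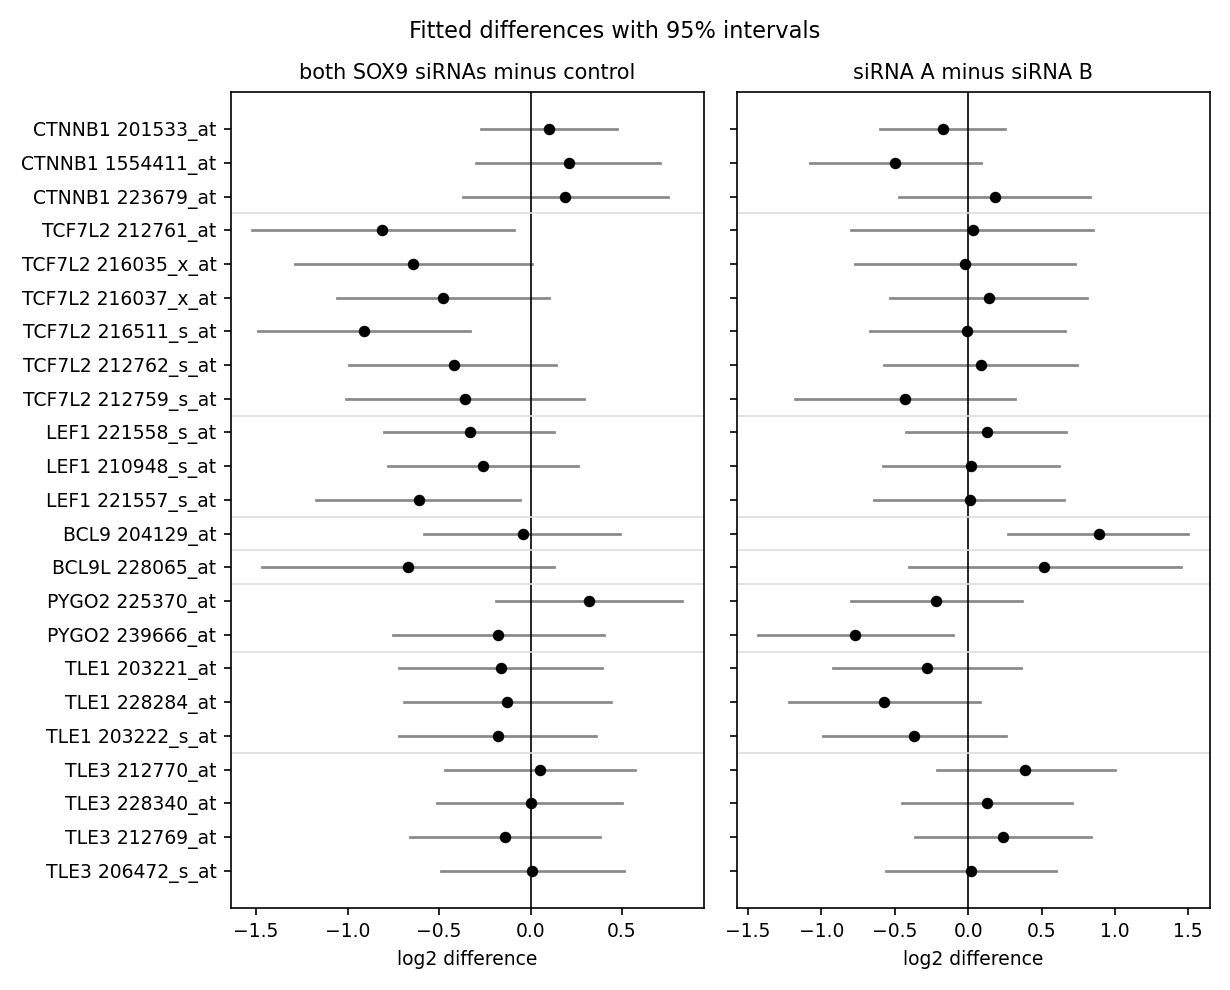
Fitted log2 differences of the 23 tested member probe sets with 95% intervals from limma, for both SOX9 siRNAs minus control on the left and siRNA A minus siRNA B on the right. The intervals of TCF7L2 212761_at and 216511_s_at and of LEF1 221557_s_at end below 0 on the left. LEF1 221557_s_at passed the filter through its control arrays alone, so its interval is a description. On the right that of BCL9 starts at 0.27 and that of PYGO2 239666_at ends at -0.10. After adjustment over all probe sets 0 were called.

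Each siRNA was also set against control alone, with the same control arrays. The median of the 23 members was -0.31 for siRNA A and -0.14 for siRNA B, against -0.04 and -0.01 over all tested probe sets. For siRNA A 0 members were called, against 0.00732% of all, and for siRNA B 0, against 0.0623%. At an unadjusted limma p below 0.05 there were 1 for siRNA A, against 3.86%, and 2 for siRNA B, against 10.3%. With the block 1 was called for siRNA A, TCF7L2 216511_s_at, against 1.3% of all (0.941% lower), and 2 for siRNA B, TCF7L2 216511_s_at and BCL9L 228065_at, against 5.6% of all (3.56% lower); all of these calls were lower.

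Other nuclear partners of beta-catenin and TCF/LEF included relatives of the members. Of 25 such genes, each taken at its brightest probe set, all were tested, 17 had negative and 8 positive differences, with a median of -0.11 against -0.04 over 12431 genes; 0 were called, and 2 were with the block, against 3.61% of those 12431 genes. The blocked calls were both TLE genes, in opposite directions. TLE4 204872_at read 51.3 and 214.9 in the siRNA A arrays and 46.9 and 188.3 in the siRNA B arrays, against 42.1 and 41.0 in the controls. It was above control in all 4 arrays and by far most in replicate 2, a replicate shift not seen in the controls. The difference was 1.05 for both siRNAs (SE 0.45, limma adjusted p = 0.706, or 0.000729 with the block).

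TLE2 40837_at read 88.3 and 11.4 in the siRNA A arrays and 112.3 and 31.2 in the siRNA B arrays, against 82.3 and 105.6 in the controls. It was low in the replicate 2 arrays of the siRNAs and not in replicate 1, while control replicate 2 was above control replicate 1. The difference was -0.76 for both siRNAs (SE 0.45, limma adjusted p = 0.785, or 0.0435 with the block). By unadjusted p the first genes of the list besides TLE4 were CTNNBIP1, an inhibitor that blocks beta-catenin from TCF factors, at -0.64, SSBP3, a partner of LDB1, at -0.54, and PYGO1, the paralogue of PYGO2, at -0.50, with limma adjusted p from 0.699 to 0.753. SSBP3 stood at -0.01 for siRNA A alone and at -1.06 for siRNA B alone, where limma adjusted p was 0.204, or 0.00557 with the block. Its siRNA A minus siRNA B difference of 1.06 had limma adjusted p = 0.282, or 0.0114 with the block. For siRNA B alone CTNNBIP1 was at -0.84 (limma adjusted p = 0.357, or 0.0343 with the block).

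The destruction complex, which phosphorylates beta-catenin for degradation, and its regulators had no called gene. Of 17 genes 16 were tested, 7 with negative and 9 with positive differences, with a median of 0.03 and 0 called with or without the block. Over all 12431 genes the median was -0.04, 1 was called, and 3.61% were called with the block. At such shares 0 calls among so few genes says little about them. The lowest p belonged to Dishevelled genes and BTRC, which ubiquitinates beta-catenin: DVL2 was at 0.39, BTRC at -0.37, DVL1 at -0.36 and DVL3 at 0.40, with limma adjusted p from 0.808 to 0.824. Of 5 membrane partners of beta-catenin 4 were tested, 2 with negative and 2 with positive differences. Here too 0 were called with or without the block, against the same shares of all genes. CDH1, E-cadherin, read 5276.7 and 3547.0 in the siRNA A arrays and 4835.1 and 4726.6 in the siRNA B arrays, against 5450.6 and 5533.2 in the controls. It was below both controls in all 4 SOX9 siRNA arrays, at -0.27 (SE 0.18, limma adjusted p = 0.821), while JUP (gamma-catenin) was at -0.10, CTNNA1 (alpha-catenin) at 0.07 and CDH2 (N-cadherin) at 0.10.

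The genes most like TCF7L2 over the 6 arrays were found by the root mean square difference from 212761_at, each gene taken relative to its own control mean. They were NAGS, which makes N-acetylglutamate for the urea cycle, at 0.0954, RAPGEF5, an exchange factor for Rap GTPases, at 0.0999, PROCR, the protein C receptor, at 0.111, the chemokine gene CXCL2 at 0.113 and FEZ1 at 0.116, against a median of 0.814 over 12423 genes. PROCR, for example, read 758.8 and 307.2 in the siRNA A arrays and 628.3 and 381.3 in the siRNA B arrays, against 1018.2 and 835.3 in the controls. Like TCF7L2 it was below both controls in all 4 SOX9 siRNA arrays and lowest in siRNA A replicate 2. This is a description of 6 arrays in 3 groups, with no test.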

How the data were processed

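The deposited table holds MAS5 signal intensity on a linear scale, 1 value for each of 54675 probe sets in 6 arrays, per the submitters' processing notes. No version or scaling target of MAS5 is given here, and the arrays' trimmed means differ. No detection calls were used, and the number of arrays limits the precision. Per the labels' protocols, biotinylated cRNA was made from 6 ug of total RNA.

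The authors' scaling was kept, and tests ran on log2(signal + 16). The 62 control probe sets were left out, and probe sets with a mean below the median of the rest were not tested, which left 27307. Gene names came from GEO's platform annotation, through gene identifiers in RefSeq (GRCh38.p14): 41091 probe sets had 1 symbol and 1801 several. Tests were by limma 3.58.1 in R 4.3.3 (lmFit on 3 groups, eBayes with trend, Benjamini-Hochberg over all probe sets tested, 3 residual degrees of freedom), tested on simulated data. There were 4 comparisons: both siRNAs together or each alone against control, and the siRNAs against each other. Every member was named, with SOX9. Other pathway genes were named where called, also with the block, or among the 4 lowest unadjusted p of their list, at the brightest probe set. Likeness named 5 genes. Members and lists were chosen with earlier results of these data known.

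Replicate numbers are shared by the groups, but no label says that they mark a culture or day. Deviations of same-numbered arrays correlated at 0.59 between the siRNAs and at 0.15 for either siRNA with control, all above 0.1, which was taken as pairing, with calls of the blocked fit already known. The tests reported first have no block; the fit with the replicate number as a block (2 residual degrees of freedom) is an alternative, given beside each printed difference whose call it changes.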

Additional observations from a re-analysis of the deposited data

Results flagged for a closer look

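BCL9 204129_at drew attention because both siRNA A arrays lay above both controls and both siRNA B arrays below them. siRNA A minus siRNA B was 0.89 on the log2 scale. The difference itself was tested and did not pass (limma adjusted p = 0.385). Over 18 alternatives it ran from 0.53 to 1.13, with limma adjusted p from 0.0468 to 0.989, and it passed in 1, the replicate block.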

How the results depend on the processing

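With both siRNAs against control, 0 members were called in 17 of 20 alternatives. The replicate block gave 2, the replicate block with median centring gave 1, and leaving out the replicate 1 arrays of both siRNAs, chosen after seeing the data, gave 2. For fits other than the plain block, the share of all probe sets called is not given. Their member counts thus cannot be set against a background. For siRNA A the replicate block gave 1 member. For siRNA B the block gave 2 and the block with median centring 1. For siRNA A against siRNA B the block gave 1. The cause was not tested. Leaving out each array in turn gave 0 members in all 4 comparisons. Over all probe sets, calls for both siRNAs were 1 as reported and ran from 0 to 950 over the alternatives, with 821 under the block. They were 2 for siRNA A (0 to 356), 17 for siRNA B (0 to 2080, the highest without siRNA B replicate 1) and 13 between the siRNAs (0 to 815, with 709 under the block). Quantile normalization, median centring, a common trimmed mean and no filter each gave 0 in all 4 comparisons. Of the 23 member probe sets, 13 kept their sign for both siRNAs in every alternative that could be run, with a value of 0.00 counted as kept. Among those 13, TCF7L2 212759_s_at and TLE3 212769_at reached 0.00. With 2 arrays a group, differences within the intervals given could have been missed, and larger ones too. SOX9 202936_s_at, at -1.36 for both siRNAs (95% interval -1.97 to -0.74), was not called without the block (limma adjusted p = 0.328).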
